A study of Mus musculus with 18 samples.

Results

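Genes of vascular endothelial cells were followed in dorsal spinal cord tissue of mice with and without inflammation of the hindpaw. The set holds 10 genes, chosen by name, of the 34579 loci in the tables. It joins 4 identity genes (Pecam1, Cdh5, Cldn5 and Flt1) with 6 genes known as inducible or linked to leukocyte adhesion (Vwf, Selp, Sele, Icam1, Vcam1 and Plvap). Each of the 10 names has 1 row in every table, at the same place in all of them. C57BL/6 mice aged 3 months had received rAAV-LacZ as the control, rAAV-HDAC4 wt (wild-type HDAC4) or rAAV-HDAC4 3SA (a mutant of HDAC4 that stays in the nucleus) in the dorsal horn on both sides beforehand. RNA was taken 24 h after an intraplantar injection of saline or of Complete Freund's Adjuvant (CFA), an oil emulsion with mycobacteria that causes lasting inflammation. The 6 groups held 3 mice each, 18 in all, and every mouse carried a vector and had undergone spinal surgery, so there is no group without rAAV. Groups are named below by their vector. In the study the vectors were meant for dorsal horn neurons, and how many endothelial cells took them up is not given in the sources used here.

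Endothelial cells line blood vessels, and in the spinal cord they form a tight barrier between blood and tissue. Their identity is marked by adhesion proteins of their junctions (Pecam1, Cdh5, Cldn5) and by receptors for vascular growth factors (Flt1). During inflammation, vessels, above all venules, can put out adhesion proteins in an ordered way. The selectins Selp and Sele let leukocytes roll, Icam1 and Vcam1 hold them through their integrins, and von Willebrand factor, stored with P-selectin in Weibel-Palade bodies, catches platelets. Several of these genes are not restricted to endothelium: Vwf and Selp are also known from megakaryocytes and platelets, Icam1 from microglia and leukocytes, and Vcam1 from astrocytes.

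The values are FPKM (mapped fragments relative to exon length and to the size of the library), deposited as 1 value per group over its 3 mice. Without values per mouse or read counts, no SD, interval or test was computed here, and no difference below is set against the spread between mice. The tables also carry the authors' own test results, which were not used. Changes are given as the ratio of CFA to saline and as a log2 fold change with 0.1 FPKM added to both groups, which understates the change of low genes. A gene is said to be past the fold when its mean over both groups was at least 0.5 FPKM and its log2 fold change lay beyond 0.5 in either direction, a size rule and not a test. Each vector was normalized in a run of its own. Over the 9714 loci above 5 FPKM in all 6 groups the median level differed between an HDAC4 group and the LacZ group of the same treatment by -0.01 to 0.01 on the log2 scale, so levels are set side by side below as a description.

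On GRCm38 the locus of Vwf runs on chromosome 6 from 125546946 to 125686681, that of Icam1 on chromosome 9 from 21014643 to 21028927, and that of Vcam1 on chromosome 3 from 116109991 to 116129688. Pecam1 lies on chromosome 11 from 106654211 to 106750237, Cdh5 on chromosome 8 from 104101628 to 104144515, Cldn5 on chromosome 16 from 18776124 to 18778265 and Flt1 on chromosome 5 from 147561601 to 147726395. These 7 loci hold between 93.7% and 100% of the exon bases annotated for their genes. Icam1 is overlapped by Gm47079, Vcam1 by Gm43109 and Cdh5 by Gm29682, each on the other strand. The libraries were stranded, and the strand setting used to assign reads is not given in the sources used here.

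Markers of the dorsal horn were present in every group, with a summed level of 9 genes between 362 and 550 FPKM. It went from 509 to 549.7 FPKM after CFA with LacZ, from 488 to 427 FPKM with HDAC4 wt and from 456 to 362 FPKM with HDAC4 3SA. Other tissues were present as well, and their genes moved with CFA in a way that differed between vectors. The summed level of 7 Schwann cell genes was 1222 and 1739 FPKM with LacZ, 1224 and 1249 FPKM with HDAC4 wt, and 1582 and 1099 FPKM with HDAC4 3SA. That of 6 skeletal muscle genes was 17.6 and 36.2 FPKM, 6.62 and 2.25 FPKM, and 55.3 and 46.5 FPKM. Genes of leptomeningeal fibroblasts, 9 matched and Dcn the most abundant, summed to 148 and 197 FPKM, 204 and 209.98 FPKM, and 183 and 191 FPKM. The Schwann cell, muscle and fibroblast sums were thus all higher after CFA with LacZ, and the first and second were lower with HDAC4 3SA. Their part in the changes of vessel genes after CFA was not tested. The summed level of 6 neuronal genes ran from 1437 to 2281 FPKM, with Snap25 as the most abundant. Mobp, a myelin gene of oligodendrocytes, ran from 834 to 1177 FPKM. The most abundant of the other lists named here were Penk for the dorsal horn, Ckm for muscle and S100a9 for neutrophils.

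The identity genes of endothelium were present in all 6 groups. Cldn5, a claudin of the tight junctions of brain and spinal cord vessels, was the most abundant member in each group. It had 23.9 FPKM (saline) and 25.1 FPKM (CFA) with LacZ. The values with HDAC4 wt were 28.9 and 31.7 FPKM, and those with HDAC4 3SA 27.7 and 32.4 FPKM. Flt1, a receptor for vascular endothelial growth factor, came next with 17.1 and 15.02 FPKM with LacZ, 20.5 and 23.4 FPKM with HDAC4 wt and 19.8 and 24.1 FPKM with HDAC4 3SA. It was lower after CFA with LacZ and higher in the other vectors. Pecam1, the platelet and endothelial adhesion molecule of cell contacts, went from 7.71 to 8.45 FPKM with LacZ. It went from 9.62 to 11.5 FPKM with HDAC4 wt and from 9.36 to 11.8 FPKM with HDAC4 3SA. Cdh5, the cadherin of endothelial junctions, went from 5.48 to 5.94 FPKM, from 7.06 to 7.40 FPKM and from 6.79 to 7.31 FPKM, the vectors being in the same order. None of the 4 identity genes was past the fold in any vector, with log2 fold changes between -0.19 and 0.33.

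**Figure D1:**
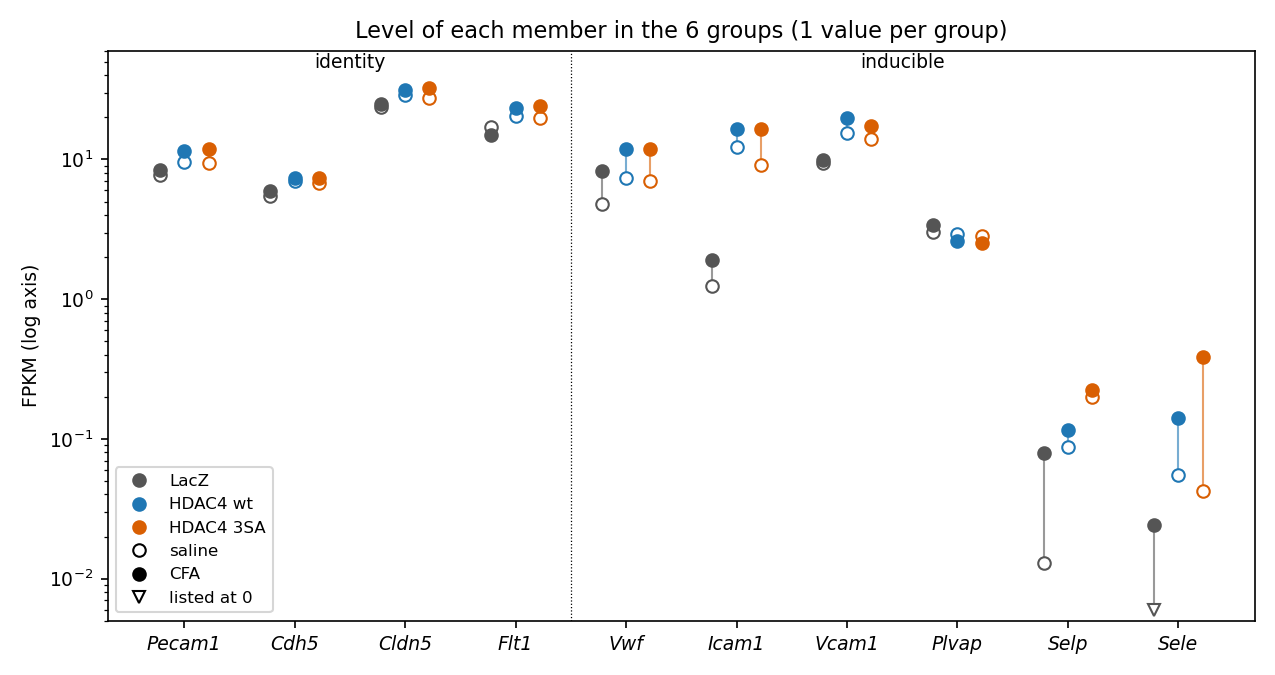
FPKM (log axis) of the 10 genes in the 6 groups, 1 point per group over its 3 mice, open for saline and filled for CFA, coloured by vector; a triangle at the foot marks a value listed at 0. Icam1 lies near 1 to 2 FPKM with LacZ and between 9.07 and 16.6 FPKM in the HDAC4 groups, and Selp and Sele stay below 0.5 FPKM throughout.

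Vwf was the inducible gene with the most even increase across vectors. It went from 4.83 to 8.22 FPKM with LacZ, from 7.35 to 11.9 FPKM with HDAC4 wt and from 7.04 to 11.9 FPKM with HDAC4 3SA. Its log2 fold change was 0.76, 0.68 and 0.75 in this order, past the fold in each vector and below 2-fold in each. A log2 fold change above 0.5 was met by 5.14% of the 21440 loci that reached 0.5 FPKM with LacZ, by 10.7% of 22069 with HDAC4 wt and by 11.3% of 22036 with HDAC4 3SA. With LacZ 97.6% of loci had a lower log2 fold change than Vwf, with HDAC4 wt 93.5% and with HDAC4 3SA 93.2%. Among loci within 2-fold of its own mean level, 3.29%, 5.87% and 7.21% were above 0.5. In bulk tissue, more cells of a type and more RNA per cell cannot be told apart. Set against the geometric mean of the 4 identity genes in the same group, Vwf stood at 42.2% after saline and 70.1% after CFA with LacZ. The values were 51.9% and 74.8% with HDAC4 wt, and 51.5% and 73.8% with HDAC4 3SA. The ratio of CFA to saline was thus 1.66, 1.44 and 1.43 relative to identity genes, while the geometric mean of the identity genes itself had ratios of 1.02, 1.12 and 1.18.

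Platelet genes were read beside Vwf, since platelets carry its RNA. Of the 10 platelet and megakaryocyte genes listed, 6 were matched, and none was at 0 in any group. Their summed level went from 3.43 to 6.68 FPKM after CFA with LacZ, from 5.65 to 4.77 FPKM with HDAC4 wt and from 7.50 to 7.56 FPKM with HDAC4 3SA. The sum was higher after CFA with LacZ, lower with HDAC4 wt and nearly level with HDAC4 3SA, while Vwf was higher in all 3. The most abundant of them over the 6 groups, the platelet chemokine gene Ppbp, had a ratio of CFA to saline of 3.69, 0.708 and 0.904. Red blood cell genes, of which 2 were matched and Hbb-bs was the most abundant, summed to 141 and 260 FPKM with LacZ, 187 and 203 FPKM with HDAC4 wt, and 347 and 394 FPKM with HDAC4 3SA. The part of blood cells in the Vwf values was not tested.

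Icam1, the ligand of the leukocyte integrins LFA-1 and Mac-1, differed between vectors already in the saline groups. After saline it had 1.24 FPKM with LacZ, 12.4 FPKM with HDAC4 wt and 9.07 FPKM with HDAC4 3SA. After CFA it had 1.90, 16.4 and 16.6 FPKM in the same order. Both LacZ values lay far below all 4 HDAC4 values. Icam1 was past the fold after CFA with LacZ, with a log2 fold change of 0.58 and a ratio of 1.53, and with HDAC4 3SA, with 0.87 and a ratio of 1.83. With HDAC4 wt the log2 fold change was 0.41, short of the fold, and the ratio 1.33. With 1 FPKM added in place of 0.1, the value with LacZ was 0.37 and no longer past the fold. The gain in FPKM was 0.66 with LacZ, 4.07 with HDAC4 wt and 7.54 with HDAC4 3SA. Relative to the identity genes, Icam1 stood at 10.8% and 16.2% with LacZ, at 87.2% and 104% with HDAC4 wt, and at 66.3% and 103% with HDAC4 3SA.

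**Figure D2:**
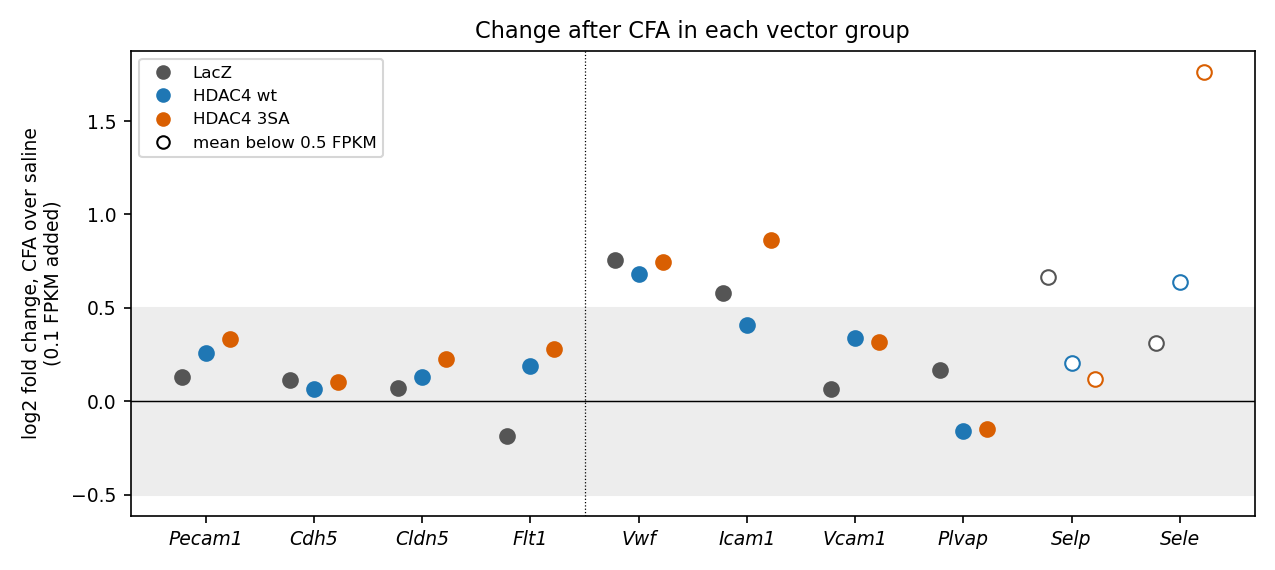
Log2 fold change of CFA over saline for the 10 genes in each vector (0.1 FPKM added); the grey band spans -0.5 to 0.5, and open points have a mean below 0.5 FPKM. Vwf lies above the band in all 3 vectors (0.68 to 0.76), Icam1 in LacZ and HDAC4 3SA mice, and the 4 identity genes stay within it.

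Of the 10 genes, 5 have a promoter in the RefSeq table for GRCm38.p6, and 3 whose level could be read are shown, 1 inducible and 2 identity genes. Each is the stretch of 250 bases before the annotated start, on the strand of the gene and in the 5′ to 3′ direction, with matches to the motifs searched in capitals.
Icam1: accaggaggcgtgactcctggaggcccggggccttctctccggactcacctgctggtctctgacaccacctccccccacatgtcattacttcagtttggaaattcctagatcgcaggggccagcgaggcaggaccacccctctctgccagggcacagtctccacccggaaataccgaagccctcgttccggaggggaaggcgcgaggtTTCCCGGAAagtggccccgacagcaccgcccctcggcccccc
Flt1: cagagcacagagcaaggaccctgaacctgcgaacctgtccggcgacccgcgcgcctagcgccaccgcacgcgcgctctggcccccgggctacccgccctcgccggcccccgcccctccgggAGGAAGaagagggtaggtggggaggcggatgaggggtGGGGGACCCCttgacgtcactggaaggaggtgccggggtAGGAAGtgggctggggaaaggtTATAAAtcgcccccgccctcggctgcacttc
Cldn5: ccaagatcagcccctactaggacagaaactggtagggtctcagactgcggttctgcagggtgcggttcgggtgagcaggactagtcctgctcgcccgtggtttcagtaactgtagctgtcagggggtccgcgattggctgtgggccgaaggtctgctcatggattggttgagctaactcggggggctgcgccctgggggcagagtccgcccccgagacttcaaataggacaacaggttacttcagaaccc

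The Icam1 stretch lies at chr9:21015690-21015939 on the plus strand, that of Flt1 at chr5:147726012-147726261 on the minus strand and that of Cldn5 at chr16:18776597-18776846 on the plus strand. Both strands were searched for the consensus of NF-kB and of MEF2 (the transcription factor family that HDAC4 is known to bind), for STAT (TTCNNNGAA), AP-1 (TGANTCA), ETS (CGGAAG or AGGAAG) and the TATA box (TATAAA), and for the IRF consensus. Icam1 held 1 match, to STAT, from 42 to 34 bases before the start, as did 7.02% of the 32851 promoters of that length. Flt1 held an NF-kB match, which reads as one on both strands, from 92 to 83 bases before the start (7.25% of promoters), a TATA box (12.4%) and 2 matches to AGGAAG (29.5%). The Cldn5 stretch held none of the motifs. A match is a run of letters and not a bound site, and its absence says only that the full consensus is not in this window. Runs close to a consensus were not marked. The Icam1 stretch holds such a run, tggaaattcc, which resembles an NF-kB site, so the lack of a match is not the lack of a site.

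Vcam1, the ligand of the integrin VLA-4, was more abundant than Icam1 and Vwf in each group. It had 9.46 FPKM (saline) and 9.92 FPKM (CFA) with LacZ, 15.5 and 19.6 FPKM with HDAC4 wt, and 13.9 and 17.3 FPKM with HDAC4 3SA. Its log2 fold change of 0.07, 0.34 and 0.31 did not reach the fold in any vector. Relative to the identity genes it moved from 82.6% to 84.6% with LacZ, from 109% to 124% with HDAC4 wt and from 102% to 108% with HDAC4 3SA. Genes of astrocytes, which can also express Vcam1, had a summed level over 6 genes, Gfap the most abundant, of 891 and 879 FPKM with LacZ, 1326 and 1599 FPKM with HDAC4 wt, and 1322 and 1644 FPKM with HDAC4 3SA. Most of that difference lay in Gfap, a filament gene of reactive astrocytes. Without it the other 5 genes summed to 502 and 465 FPKM with LacZ, 519 and 574 FPKM with HDAC4 wt, and 518 and 549.7 FPKM with HDAC4 3SA. Of the 6 genes, 3 were higher in each HDAC4 group than in the LacZ group of the same treatment. The part of astrocytes in the values of Vcam1 was not tested.

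Plvap, a protein of the diaphragms of fenestrated and leaky endothelium, was not raised in the way of Vwf. It went from 3.04 to 3.42 FPKM with LacZ, from 2.92 to 2.60 FPKM with HDAC4 wt and from 2.82 to 2.53 FPKM with HDAC4 3SA. The log2 fold change was 0.17, -0.16 and -0.15, so the direction differed between LacZ and the HDAC4 vectors, each time short of the fold. This difference between vectors was not tested. The locus of Plvap, on chromosome 8 from 71487993 to 71511406 on GRCm38, runs into Gtpbp3, a gene on the other strand, and holds 82.6% of the annotated exon bases of Plvap.

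The selectins were at the foot of the range. P-selectin (Selp) had 0.0130 FPKM (saline) and 0.0794 FPKM (CFA) with LacZ, 0.0873 and 0.115 FPKM with HDAC4 wt, and 0.199 and 0.225 FPKM with HDAC4 3SA. E-selectin (Sele) was listed at 0 after saline and had 0.0242 FPKM after CFA with LacZ. It had 0.0552 and 0.142 FPKM with HDAC4 wt, and 0.0422 and 0.383 FPKM with HDAC4 3SA. All values after CFA were above the saline value of the same vector, yet all 12 lay below 0.5 FPKM. Such low values may rest on few reads and a value listed at 0 can be a failed estimate. Moreover, the loci are fragments of their genes. On GRCm38 the Selp locus lies on chromosome 1 from 164123704 to 164128194 and holds 13.96% of the annotated exon bases. The Sele locus, on chromosome 1 from 164057187 to 164057664, holds 16.4%, at the 3' end of the gene. The 4 inducible and 4 identity genes that reached 0.5 FPKM are therefore 8 of the 10, and Selp and Sele enter no count that uses this minimum.

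As sets, inducible and identity genes differed more in their single members than in their medians. With LacZ the median log2 fold change was 0.37 for the 4 inducible genes above 0.5 FPKM and 0.09 for the 4 identity genes, against 0.00 for all 21440 loci. With HDAC4 wt it was 0.37 and 0.16, against 0.01 over all loci. With HDAC4 3SA it was 0.53 and 0.25, again against 0.01 over all loci. The difference of the medians was 0.28, 0.22 and 0.28. Past the fold in either direction were 2 of 4 inducible genes with LacZ, 1 with HDAC4 wt and 2 with HDAC4 3SA, all upward, and 0 of 4 identity genes in each. Above 0 were 4, 3 and 3 of the 4 inducible genes and 3, 4 and 4 of the 4 identity genes, against 50.2%, 52.4% and 51.8% of all loci. The share of all loci past the fold in either direction was 9.52% with LacZ, 17.5% with HDAC4 wt and 17.3% with HDAC4 3SA. With at most 4 genes per set, these counts describe the genes and carry no test of the sets.

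**Figure D3:**
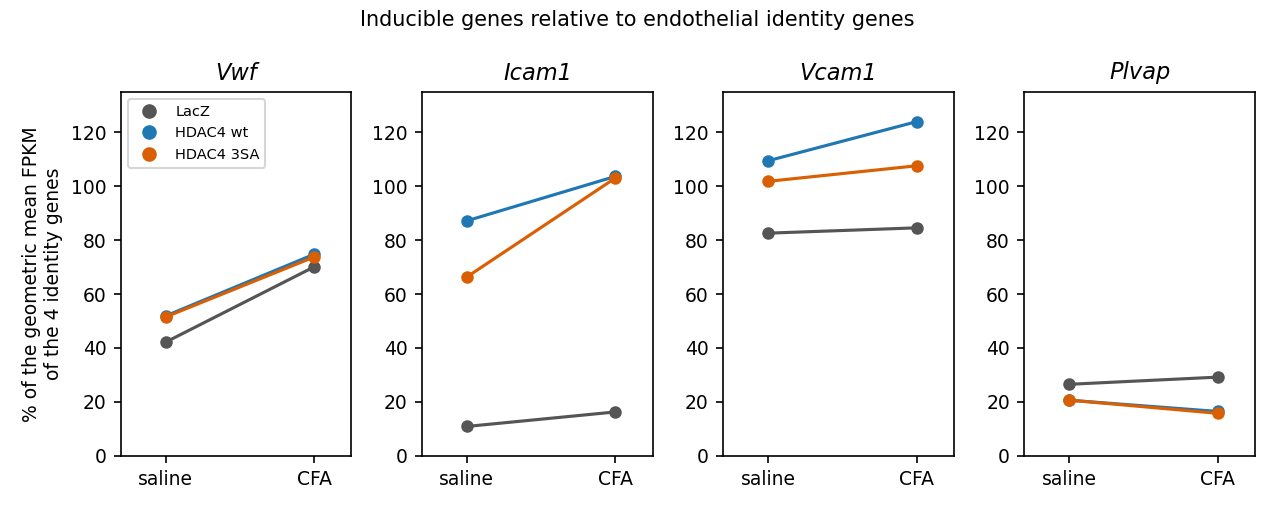
Level of 4 inducible genes after saline and after CFA, in percent of the geometric mean FPKM of Pecam1, Cdh5, Cldn5 and Flt1 in the same group, 1 line per vector. Vwf is higher after CFA in each vector, at between 70.1% and 74.8%, Icam1 starts at 10.8% with LacZ against 66.3% and 87.2% in the HDAC4 vectors, and Plvap is lower after CFA in the HDAC4 vectors.

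In all 6 groups Cldn5, Flt1 and Vcam1 led in this order, and Selp and Sele came last in either order. Within the middle, Icam1 changed place. It was eighth in both LacZ groups, below Plvap, and the fourth or the fifth of the 10 in the HDAC4 groups. Vwf stood below Cdh5 and Pecam1 after saline with LacZ, and above Cdh5 in the other 5 groups. Without values per mouse, none of these neighbours can be said to differ beyond its spread.

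Compared with LacZ mice of the same treatment, the HDAC4 groups had higher levels of most members. After saline, the identity genes were 1.20 to 1.29 times the LacZ value with HDAC4 wt and 1.16 to 1.24 times with HDAC4 3SA, none of them beyond 0.5 on the log2 scale. Vwf was 1.52 and 1.46 times and Vcam1 1.64 and 1.47 times the LacZ value. Icam1 was 9.94 times the LacZ value with HDAC4 wt and 7.30 times with HDAC4 3SA. A difference above 0.5 was found for these 3 of the 4 inducible genes in both vectors, against 16.1% of 21705 loci for HDAC4 wt and 13.3% of 21594 loci for HDAC4 3SA. Beyond 0.5 in either direction were 29% of loci (HDAC4 wt) and 25.1% (HDAC4 3SA). The numbers of loci with a larger log2 difference than Icam1 were 365 and 327. Plvap was 0.961 and 0.929 times the LacZ value. After CFA, the same 3 inducible genes and 1 identity gene, Flt1 (1.55 and 1.60 times), were above 0.5, against 15.6% of 21713 loci for HDAC4 wt and 18.1% of 21759 loci for HDAC4 3SA. Beyond 0.5 in either direction were then 24.2% and 31.5% of loci. Icam1 was 8.63 and 8.73 times the LacZ value. Vector, mice and the run in which a vector was normalized cannot be told apart in these differences.

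**Figure D4:**
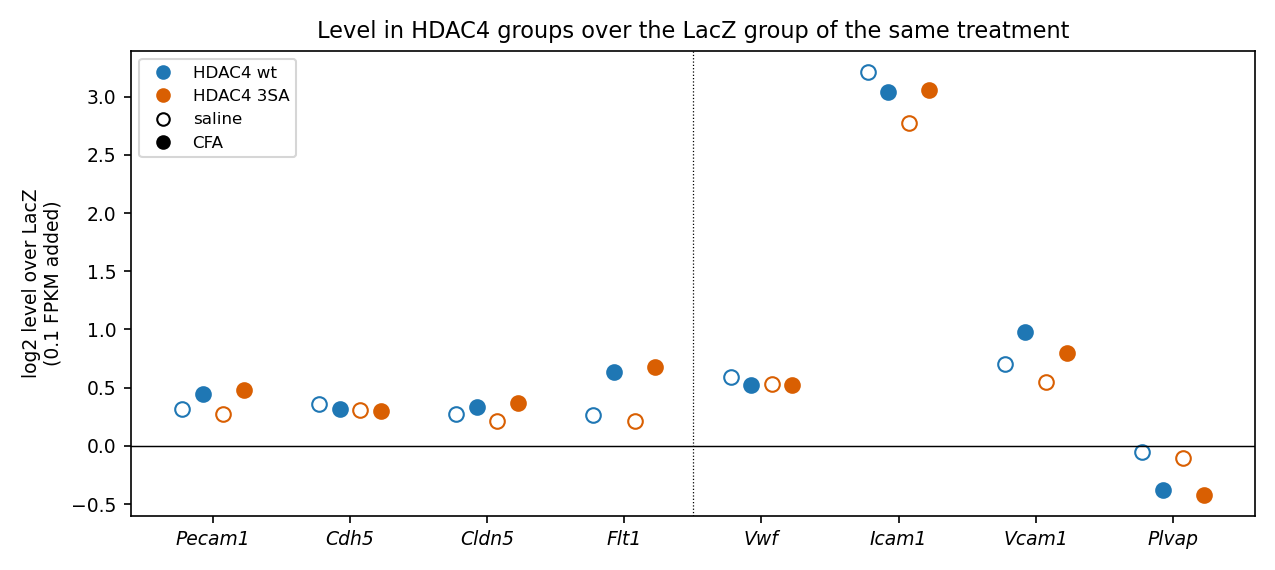
Log2 level of 8 genes in HDAC4 wt and HDAC4 3SA mice over the LacZ group of the same treatment (0.1 FPKM added), open for saline and filled for CFA. Icam1 lies between 2.77 and 3.21, Vwf near 0.5 to 0.6, the identity genes between 0.21 and 0.68, and Plvap below 0.

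Microglial genes moved with Icam1 across vectors. The summed level of 8 microglial genes was 125 FPKM (saline) and 127 FPKM (CFA) with LacZ, 391 and 454 FPKM with HDAC4 wt, and 325 and 527 FPKM with HDAC4 3SA, with no marker at 0. All 8 were higher in each HDAC4 group than in the LacZ group of the same treatment. Markers of perivascular macrophages, 6 genes led by Ms4a7, summed to 5.77 and 7.16 FPKM with LacZ, 26.9 and 34.5 FPKM with HDAC4 wt, and 17.2 and 34.1 FPKM with HDAC4 3SA. Here Ms4a7 made up most of the difference, as the other 5 genes summed to 5.26 and 6.36 FPKM with LacZ, 7.52 and 7.79 FPKM with HDAC4 wt, and 5.83 and 6.14 FPKM with HDAC4 3SA. Neutrophil genes were higher after CFA with LacZ, as Icam1 was, and lower with both HDAC4 vectors, where Icam1 was higher, with sums of 11.3 and 114 FPKM with LacZ, 41.7 and 29.1 FPKM with HDAC4 wt, and 62.4 and 39.0 FPKM with HDAC4 3SA. The genes whose 6 values ran most closely with those of Icam1 were looked up after the values of Icam1 had been seen. Among 16249 other loci with 1 gene name and a mean of at least 1 FPKM, they were C1qc, B2m and C1qa, with root mean square differences of 0.07, 0.08 and 0.09 on the log2 scale after centring over the 6 groups. C1qa, a subunit of complement C1q, had 37.5 and 49.9 FPKM with LacZ, 360 and 486 FPKM with HDAC4 wt and 254 and 500 FPKM with HDAC4 3SA. The part of these cells in the values of Icam1 was not tested.

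For Vwf, the nearest loci by the same measure were Igfbp7 (0.09), Grrp1 (0.11) and Gm34267 (0.12). Igfbp7, which encodes a secreted protein of vessel walls, went from 23.2 to 40.4 FPKM with LacZ, from 41.4 to 59.98 FPKM with HDAC4 wt and from 36.9 to 56.0 FPKM with HDAC4 3SA. Grrp1 went from 2.48 to 3.73 FPKM, from 3.14 to 5.03 FPKM and from 3.16 to 4.91 FPKM. For Pecam1 the nearest were Ankrd13a (0.02), Map2k3 (0.03) and Gcnt2 (0.03), each within a narrow range of levels. This likeness covers 6 group values and is a description.

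The leukocyte side of adhesion was read in 10 matched genes for counter-receptors. After CFA, 6 of the 9 that reached 0.5 FPKM were past the fold upward with HDAC4 3SA, against 11.3% of all loci, with a median log2 fold change of 0.71. With HDAC4 wt 0 of 9 were past the fold and with LacZ 0 of 7, with medians of 0.31 and 0.29, where 10.7% and 5.14% of all loci were past it upward. The largest log2 fold change with HDAC4 3SA was that of Itgax (1.15), an integrin chain of dendritic cells and activated microglia, from 11.6 to 25.9 FPKM. Itgax had 15.8 and 19.9 FPKM with HDAC4 wt and only 0.323 and 0.411 FPKM with LacZ. Cd24a, the most abundant of the list and expressed by many cell types, had 49.4 and 60.2 FPKM with LacZ and ratios of 1.04 with HDAC4 wt and 1.17 with HDAC4 3SA. The sum over the list was 97.2 and 114 FPKM with LacZ, 188 and 219 FPKM with HDAC4 wt, and 174 and 258 FPKM with HDAC4 3SA. As for Icam1, the sum after saline was higher in both HDAC4 vectors than with LacZ. Of the 8 microglial genes, 4 were likewise past the fold upward with HDAC4 3SA and 0 with LacZ or HDAC4 wt, and their part in the values of this list was not tested.

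Of 17 matched genes of endothelial identity, 0 were past the fold with LacZ, 1 with HDAC4 wt and 3 with HDAC4 3SA, all upward, with medians of 0.14, 0.17 and 0.18. Over all loci 5.14%, 10.7% and 11.3% were past the fold upward, so such counts are near the background. The largest log2 fold change with HDAC4 wt was that of the transcription factor gene Erg (0.69), from 1.99 to 3.27 FPKM. With HDAC4 3SA it was that of Ly6a, a surface antigen gene that also responds to interferon, from 20.9 to 35.2 FPKM. Ly6a had only 5.69 and 7.17 FPKM with LacZ, and 28.6 and 38.9 FPKM with HDAC4 wt. Erg is read from a locus with 66.8% of its exon bases. Ly6c1, the most abundant, had ratios of 1.15, 1.302 and 1.42 in LacZ, HDAC4 wt and HDAC4 3SA mice and was past the fold in the last (log2 fold change 0.50). Of the 15 genes of the blood-brain barrier, none of those above 0.5 FPKM was past the fold in any vector, with medians of 0.02, 0.15 and 0.21. Ctnnb1, the most abundant of them and a transducer of Wnt signals, had ratios of 0.992, 1.03 and 1.06. Of the 9 arterial genes, 8 reached 0.5 FPKM and 0 were past the fold in any vector, with medians of 0.04, 0.08 and 0.04; the most abundant, the Notch target gene Hey1, had ratios of 1.01, 1.05 and 1.10.

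Lrg1, a gene of venous endothelium, had the largest log2 fold change among the genes of the 9 vascular lists above 0.5 FPKM in each vector. The cell type lists, such as that of mural cells, are not among these lists. Of the 7 venous genes matched, 3 were past the fold upward with LacZ, 2 with HDAC4 wt and 3 with HDAC4 3SA, and 1 was past it downward with HDAC4 3SA. Over all loci 5.14%, 10.7% and 11.3% were past the fold upward, and 5.92% downward with HDAC4 3SA. The median of the 7 was 0.13, 0.20 and 0.30, close to that of the identity genes. Lrg1, which encodes a secreted glycoprotein of inflamed vessels, went from 1.20 to 5.40 FPKM with LacZ, from 1.72 to 6.99 FPKM with HDAC4 wt and from 2.42 to 6.93 FPKM with HDAC4 3SA. Slc38a5, an amino acid transporter gene of brain veins and capillaries, went from 3.07 to 6.55 FPKM, from 4.203 to 7.16 FPKM and from 5.32 to 8.02 FPKM. Lrg1 and Slc38a5 were the only genes of the vascular lists past the fold upward in all 3 vectors, as Vwf was. Il1r1, the receptor of interleukin 1, went from 1.22 to 2.37 FPKM with LacZ, the largest log2 fold change there among genes of the NF-kB list above 0.5 FPKM, and had ratios of 1.23 with HDAC4 wt and 1.45 with HDAC4 3SA. Aplnr, the apelin receptor, was lower after CFA with HDAC4 3SA, from 4.61 to 2.68 FPKM, and had ratios of 0.909 with LacZ and 0.777 with HDAC4 wt. Il6st, the most abundant of the list and the shared receptor chain of interleukin 6 cytokines, had ratios of 0.965, 1.06 and 1.06.

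Partners of Vwf in storage and clotting were mixed. Of 10 matched genes, of which 9 reached 0.5 FPKM with LacZ, 2 were past the fold upward in each vector and 1 downward with LacZ. The shares of all loci were 5.14%, 10.7% and 11.3% upward and 4.38% downward with LacZ, so the counts with the HDAC4 vectors are near the background. Thbd, which encodes thrombomodulin, an anticoagulant receptor, went from 3.15 to 5.59 FPKM with LacZ and from 4.29 to 6.13 FPKM with HDAC4 wt, and had a ratio of 1.21 with HDAC4 3SA. Cd63, a membrane protein of Weibel-Palade bodies and lysosomes, was lower after CFA with LacZ, from 3.58 to 1.32 FPKM, with ratios of 1.26 and 1.01 in the HDAC4 vectors. Plat, the most abundant of the list, had ratios of 1.10, 1.13 and 1.21.

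Among the other adhesion and transmigration genes, of which 12 were matched and 11 reached 0.5 FPKM, 0 were past the fold with LacZ, 1 with HDAC4 wt and 4 with HDAC4 3SA, all upward, against 5.14%, 10.7% and 11.3% of all loci. Podxl, a sialomucin of the luminal surface, went from 11.6 to 17.5 FPKM with HDAC4 wt, reached 16.6 FPKM after CFA with HDAC4 3SA (a ratio of 1.51), and had 7.69 and 10.2 FPKM with LacZ. Msn, which links Icam1 and other membrane proteins to actin, went from 33.4 to 60.5 FPKM with HDAC4 3SA, from 39.1 to 50.8 FPKM with HDAC4 wt and from 18.7 to 21.2 FPKM with LacZ. Cd99l2, the most abundant, had ratios of 1.004, 1.01 and 0.932. In the VEGF and angiopoietin system 15 genes were matched. Of these, 14 reached 0.5 FPKM with LacZ, 15 with HDAC4 wt and 14 with HDAC4 3SA. Past the fold were 0 with LacZ, 2 upward with HDAC4 wt and 1 downward, Aplnr, with HDAC4 3SA. With 10.7% of all loci upward with HDAC4 wt and 5.92% downward with HDAC4 3SA, these counts are near the background. Flt4, a receptor of the same family as Flt1, went from 0.889 to 1.34 FPKM with HDAC4 wt, the largest log2 fold change of this list there (0.54). Vegfb, a ligand of Flt1 and the most abundant gene of the list, had ratios of 1.04, 1.04 and 1.08.

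NF-kB is the pathway best known for induction of Icam1, Vcam1 and Sele. Of its 16 genes, 14 reached 0.5 FPKM with LacZ, 16 with HDAC4 wt and 15 with HDAC4 3SA. Of those, 1 was past the fold with LacZ, 0 with HDAC4 wt and 4 with HDAC4 3SA, all upward. The medians were 0.20, 0.19 and 0.31. Tnfrsf1a, a receptor of tumour necrosis factor and the most abundant of the list, went from 23.6 to 54.6 FPKM with HDAC4 3SA, from 28.6 to 38.6 FPKM with HDAC4 wt and from 9.32 to 10.7 FPKM with LacZ. Over the genes of the 9 vascular lists, with members left out, 106 were matched. With LacZ 5 were past the fold upward and 1 downward of 96 that reached 0.5 FPKM, with HDAC4 wt 8 and 0 of 103, and with HDAC4 3SA 21 and 1 of 101. The shares above 0.5 over all loci, given with Vwf, were 5.14%, 10.7% and 11.3%, and those below -0.5 were 4.38%, 6.78% and 5.92%. Of the 21 increases with HDAC4 3SA, 6 were leukocyte counter-receptors. Without that list and the NF-kB list, a choice made after the values were seen, 12 of 78 genes (15.4%) were past the fold upward with HDAC4 3SA, 8 of 79 (10.1%) with HDAC4 wt and 5 of 76 (6.58%) with LacZ.

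**Figure D5:**
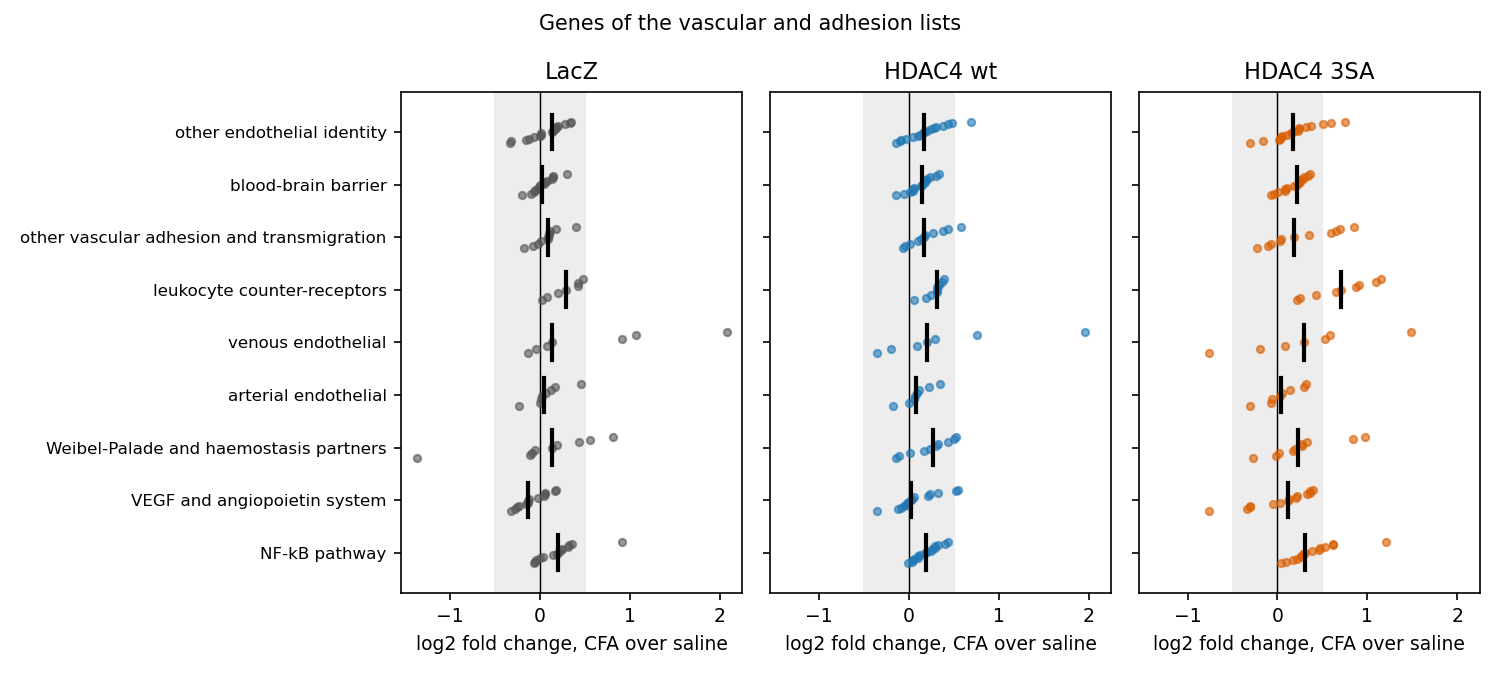
Log2 fold change of CFA over saline (0.1 FPKM added) for each gene of the 9 vascular lists with a mean of at least 0.5 FPKM, 1 panel per vector; black bars are list medians and the grey band spans -0.5 to 0.5. Most genes lie within the band, the leukocyte counter-receptors have a median of 0.71 with HDAC4 3SA, and Lrg1 is the rightmost point in each panel.

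Mural cells, which wrap vessels, were read as a check on vessel content. The summed level of 12 genes was 110 and 114 FPKM with LacZ, 152 and 160 FPKM with HDAC4 wt, and 132 and 147 FPKM with HDAC4 3SA, with medians of the log2 fold change of 0.10, 0.22 and 0.30. Like the identity genes, they were somewhat higher in the HDAC4 vectors. The most abundant, Vtn, had ratios of 1.10, 0.958 and 0.984. Without Vtn the other 11 genes summed to 60.3 and 59.2 FPKM with LacZ, 77.4 and 87.98 FPKM with HDAC4 wt, and 73.7 and 90.3 FPKM with HDAC4 3SA, so the higher sum after CFA with LacZ rested on Vtn. Past the fold were 1 of 12 genes with LacZ, 1 with HDAC4 wt and 3 with HDAC4 3SA, all upward, against 5.14%, 10.7% and 11.3% of all loci, so the counts with LacZ and HDAC4 wt are near the background. These genes were named after their values were seen. The aminopeptidase gene Anpep was past the fold in all 3 vectors (log2 fold change 0.52, 0.61 and 1.505). With HDAC4 3SA the smooth muscle genes Acta2 (0.75) and Myh11 (0.57) were past it as well. Anpep differed between vectors already after saline, with 0.993 FPKM with LacZ, 4.88 FPKM with HDAC4 wt and 3.13 FPKM with HDAC4 3SA. The other genes of the list, Pdgfrb and Rgs5 among them, were not past the fold in any vector. Lymphatic endothelial genes, 4 matched and Pdpn the most abundant, had sums of 13.5 to 22.1 FPKM.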

How the data were processed

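RNAseq of dorsal spinal cord from 18 mice in 6 groups was read from 1 table per vector. The authors mapped single-end reads with TopHat and Bowtie to GRCm38 with Ensembl genes, per the paper's methods, and deposited Cuffdiff FPKM values, 1 per group over 3 mice and scaled within the run of that vector. Neither read counts nor depth per mouse were at hand. The tables also hold the authors' fold changes, statistics, p-values and q-values from Cuffdiff, which bear on the precision of each difference and were left unused by choice.

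Members were matched by gene name. Log2 fold changes were computed from the FPKM columns with 0.1 FPKM added, and genes were said to be past the fold beyond 0.5 with a mean of at least 0.5 FPKM. The computation was checked on simulated data. With 1 value per group no test was run. The 386 loci whose place or name differs between tables were left out of gene lists and comparisons between vectors. The members and the 23 gene lists, 222 genes of which 200 were matched, were chosen with earlier results of these data known; 9 genes are in more than 1 list. For a name with several rows, the row with the highest mean FPKM was taken. Named list genes are the most abundant of each vascular list, its largest rise and fall by log2 fold change past the fold in each vector and those past the fold in all; of each cell type list the most abundant gene is named and the sums are given. For Vwf and Pecam1 the 3 loci nearest in their 6 values are named, and for Icam1 as well, which was decided after its values were seen. Some genes that the rule names are not reported here. Starts in the tables were read as 0-based, since 1581 starts plus 1 equal a GENCODE M21 gene start against 509 taken as given. Alternatives were 0 or 1 FPKM added, no minimum or 1 FPKM, a log2 threshold of 1, centring on loci above 5 FPKM and summed rows. Python 3.11.15, pandas 2.3.3 and numpy 2.4.6 were used.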

Additional observations from a re-analysis of the deposited data

How the results depend on the processing

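No paired analysis was possible because the tables hold 1 value per group and no replicate columns; for the same reason no replicate could be left out. The number of inducible genes past the fold went from 2 to 1 in LacZ mice with 1 FPKM added, as Icam1 had a log2 fold change of 0.37, and from 1 to 2 in HDAC4 wt mice without a minimum level, where Sele entered; it also went from 2 to 3 with LacZ, by Selp, and with HDAC4 3SA, by Sele. With a log2 threshold of 1 the number was 0 for each of the 3 vectors, since Vwf and Icam1 changed by less than 2-fold. The number of genes of the vascular lists past the fold, 6, 8 and 22 for LacZ, HDAC4 wt and HDAC4 3SA, became 3, 1 and 4 with the threshold of 1, and 4 in HDAC4 wt mice with 1 FPKM added. Without the leukocyte and NF-kB lists, left out after the data were seen, it was 13 for HDAC4 3SA. No identity gene passed under any alternative. The difference between the medians of inducible and identity genes stayed above 0 in all 3 vectors under each alternative computed, from 0.17 to 0.35 for LacZ, from 0.20 to 0.22 for HDAC4 wt and from 0.24 to 0.28 for HDAC4 3SA. Over all alternatives the log2 fold change of Vwf lay between 0.66 and 0.77 for LacZ, 0.62 and 0.69 for HDAC4 wt, and 0.68 and 0.76 for HDAC4 3SA.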
